A study of Rattus norvegicus with 59 samples.

Results

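The genes described here encode the working parts of the DNA replication fork. They are the 3 subunits of replication protein A (Rpa1, Rpa2, Rpa3), the sliding clamp Pcna, the clamp loader subunit Rfc3, the DNA polymerase subunits Pold1, Pold2 and Pole3, and the enzymes Fen1 and Lig1 that finish lagging-strand fragments. These 10 genes, of 14217 with a symbol on the array, were picked out by symbol, and the set was chosen with earlier results of these data known. They were read by 14 of 31042 probe sets: 4 for Pole3, 2 for Lig1 and 1 for each of the other genes. Each gene is described by its brightest probe set, and no filter on signal was used, so all 10 were tested in every comparison. The 4 Pole3 probe sets are annotated to Pole3 and to a pseudogene, Pole3-ps3, and the signal of those copies cannot be separated.

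RNA from whole liver of male Sprague-Dawley rats was measured on 59 Affymetrix rat genome arrays, 1 liver each. Rats received a single intraperitoneal injection of CdCl2 at 1.25 mg/kg (Cd), of Na2Cr2O7 labelled as 20 mg/kg (Cr) or of saline vehicle, and livers were taken on day 1, 3 or 7. The study's methods name the middle Cr dose for the arrays in one sentence and in another the high dose, which is the labelled one. There were 5 exposed livers in each group except Cd day 1, which had 4 after the authors left out an animal found to hold no Cd, and each exposed group had its own 5 same-day, same-metal control livers. Hepatocyte genes marked the tissue as labelled, with Alb at a mean log2 signal of 14.86 and Ttr at 14.42. All arrays had a median log2 signal between 5.38 and 5.46.

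At a replication fork the DNA is unwound, and replication protein A coats the exposed single strands. The clamp loader then sets PCNA, a ring around DNA, onto each new primer, and polymerases delta and epsilon copy DNA while held by that ring. On the lagging strand Fen1 cuts away the displaced flap and Lig1 seals the nick. The same proteins also fill gaps in DNA repair. Most adult hepatocytes do not divide, and whether the signal here came from dividing cells or from repair was not tested. In whole liver, fewer cells of a type and less RNA per cell cannot be told apart.

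On day 1 after Cr, 7 of the 10 genes rose, and none fell. The genes that rose were Rpa2, Pold2, Rfc3, Pcna, Fen1, Pole3 and Pold1, by 1.36-fold to 1.96-fold. Rpa1, Rpa3 and Lig1 were not called by their brightest probe sets. A gene counts as called where limma gave it an adjusted p no higher than 0.05, adjusted by Benjamini-Hochberg over all probe sets, and fold changes are differences of log2 signal. Among all probe sets on that day 26% were called, and 14.8% were called higher. Among probe sets averaging at least 6 (log2), which included 8 of the 10 genes, 27.7% were called higher, so a large part of the transcriptome moved on that day. The median difference of the 10 genes was 0.58 (log2), against -0.03 over all probe sets.

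**Figure D1:**
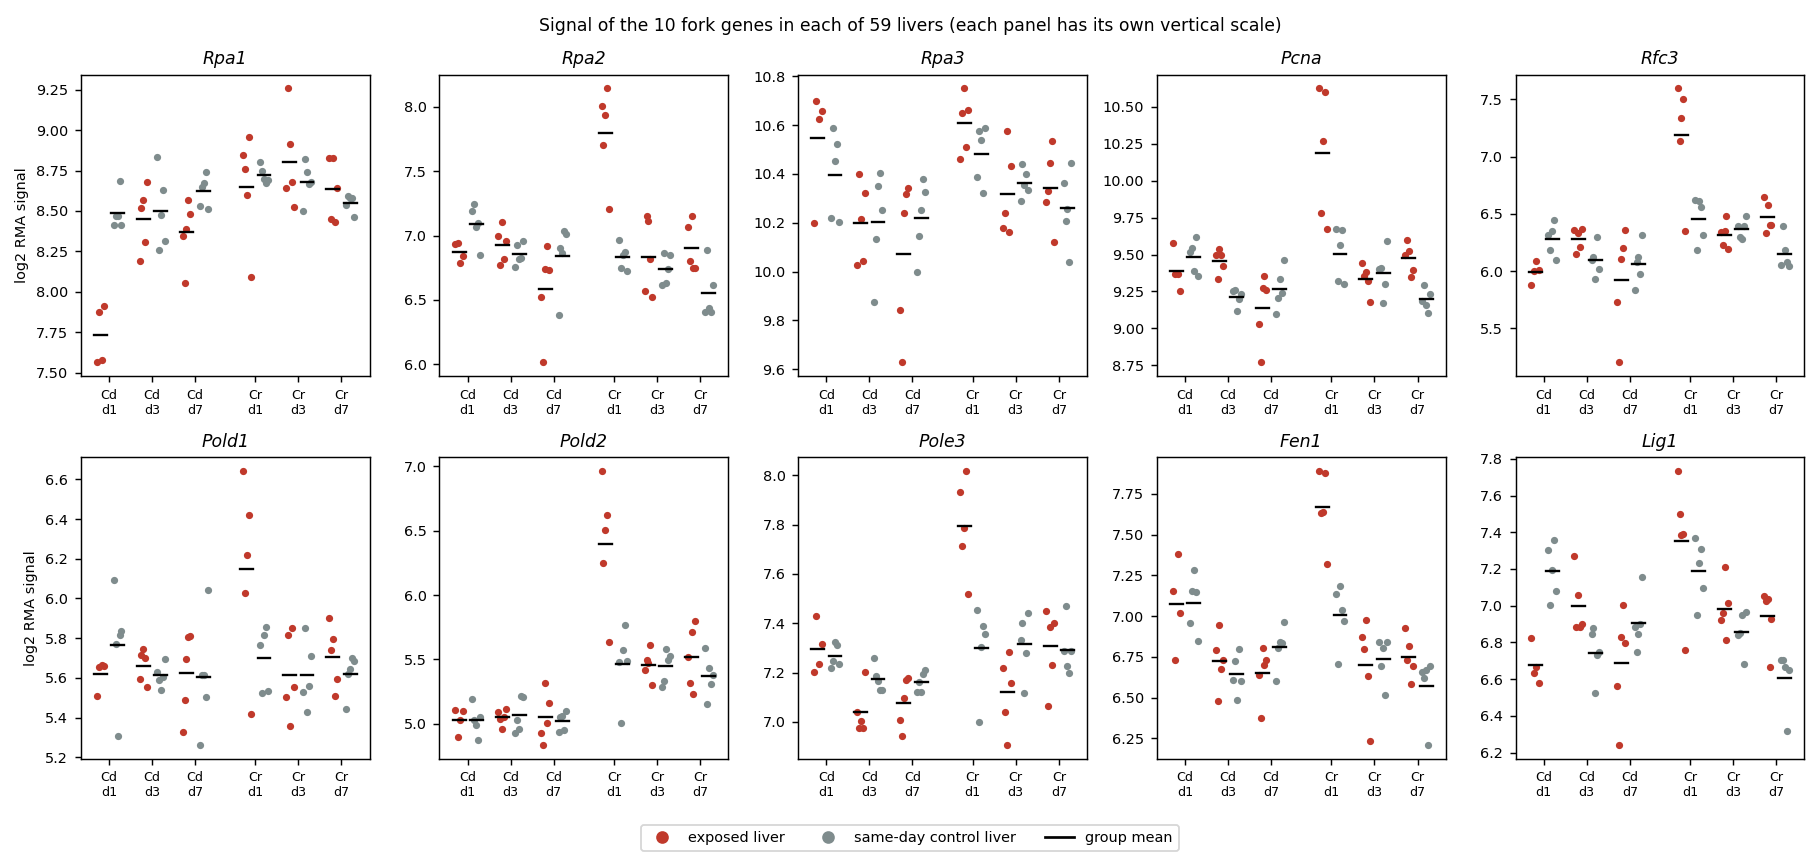
Log2 RMA signal (vertical axis) of each gene's brightest probe set in every liver, by metal and day (horizontal axis), with exposed livers to the left of their controls and black bars for group means. The mean of the Cr day 1 livers stands highest for Rpa2, Pcna, Rfc3, Pold2, Pole3 and Fen1. The lowest Cr day 1 liver overlaps other groups for each of these except Pole3. The Cd day 1 livers stand lowest for Rpa1.

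Rpa2, the middle subunit of replication protein A, read 8.004, 7.71, 7.94, 8.15 and 7.21 (log2 signal) in the Cr day 1 livers 1 to 5, against 6.96, 6.75, 6.85, 6.87 and 6.72 in the control livers. Every exposed liver was above every control liver, with liver 5 closest to them. The difference was 0.97 ± 0.14 (log2, SE), a 1.96-fold rise (adjusted p = 5.47e-06). Rpa1, the large subunit that carries most of the DNA contacts, read 8.85, 8.76, 8.60, 8.96 and 8.09 in the exposed livers and 8.80, 8.75, 8.70, 8.67 and 8.69 in the controls. The exposed livers of this gene lay on both sides of the controls, and the difference was -0.07 ± 0.12 (limma adjusted p = 0.715, interval -0.33 to 0.18). Rpa3, the small subunit, had means of 10.61 ± 0.12 in exposed livers and 10.48 ± 0.12 in controls (SD, n = 5 each), and the groups overlapped (difference 0.12 ± 0.09, limma adjusted p = 0.32). Among the 3 subunits of the complex, only Rpa2 was called against same-day controls, and the differences between subunits were not tested. With the controls of all 3 days pooled, Rpa3 was called too (0.24 ± 0.08, limma adjusted p = 0.0151).

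Pcna, the clamp, read 10.63, 9.78, 10.27, 10.60 and 9.67 in the Cr day 1 livers and 9.67, 9.32, 9.56, 9.66 and 9.30 in the controls. Livers 1, 3 and 4 carried most of the rise, and liver 5 touched the top of the controls. The difference was 0.68 ± 0.13 (1.61-fold, limma adjusted p = 0.000203). Rfc3, a small subunit of the clamp loader, read 7.60, 7.14, 7.34, 7.51 and 6.35 in exposed livers and 6.62, 6.19, 6.61, 6.56 and 6.31 in controls. Livers 1 to 4 were above all controls, while liver 5 was among them, and the difference was 0.73 ± 0.14 (1.65-fold, adjusted p = 0.000294).

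The polymerase subunits rose on the same day. Pold2, the accessory subunit of polymerase delta, read 6.96, 6.25, 6.51, 6.62 and 5.63 in Cr day 1 livers and 5.48, 5.00, 5.58, 5.77 and 5.49 in controls (difference 0.93 ± 0.16, 1.91-fold, limma adjusted p = 6.09e-05). Pold1, the catalytic subunit of the same polymerase, read 6.64, 6.03, 6.22, 6.42 and 5.42 in exposed livers and 5.76, 5.52, 5.82, 5.86 and 5.54 in controls. Liver 5 had the lowest Pold1 value of all 10 livers, and the difference was the smallest of the 7 called (0.45 ± 0.15, 1.36-fold, adjusted p = 0.0214). Its call was lost without exposed liver 1 or 4 or without control liver 2 or 5 (adjusted p from 0.0565 to 0.104). Pole3, a small histone-fold subunit of polymerase epsilon, read 7.93, 7.71, 7.79, 8.02 and 7.52 in exposed livers, all above the controls at 7.45, 7.00, 7.30, 7.39 and 7.36. Its difference was 0.49 ± 0.10 (limma adjusted p = 0.000264), and its other 3 probe sets were also called, with differences of 0.81, 0.54 and 0.35. Rpa2 and Pold2 were the only genes of the 10 that also passed the 1.8-fold threshold of the methods, which 2.69% of all probe sets did together with the adjusted p.

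Fen1, the flap endonuclease, read 7.89, 7.63, 7.64, 7.88 and 7.32 in the Cr day 1 livers and 7.14, 6.71, 7.18, 7.04 and 6.97 in controls. No exposed liver overlapped the controls, and the difference was 0.67 ± 0.12 (1.59-fold, limma adjusted p = 0.000144). Lig1, the ligase that acts after Fen1, read 7.73, 7.50, 7.39, 7.39 and 6.76 in exposed livers and 7.37, 6.95, 7.23, 7.31 and 7.09 in controls. Livers 1 to 4 were above every control and liver 5 was below every control. The difference of that probe set was 0.16 ± 0.12 (adjusted p = 0.358), while the second and dimmer Lig1 probe set had a difference of 0.37 ± 0.13 and was called (adjusted p = 0.0285).

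The promoters of these genes are shown because most of the genes moved together on Cr day 1. RefSeq sequence of build GRCr8, from 250 bases before to 50 after a transcript start, was given for 9 of the 10 genes, all but Rpa3. It was searched on both strands for 4 words read by E2F factors, which are known to drive S phase genes. These were TTCCCGC as the first word, TTCGCGC as the second, TTGCCGC as the third and TTGGCGC as the last. The E-box CACGTG and the CCAAT box were searched too. An E2F word was found in 6 of the 9 windows (Rpa2, Fen1, Pold1, Pole3, Rfc3 and Lig1), against 9.52% of 33469 rat promoters of that length. The windows of Rpa1, Pold2 and Pcna held none of the E2F words, though Pold2 and Pcna rose on Cr day 1. The genes were picked for their work at the fork, so their share against all promoters is no test of the Cr rise. CACGTG stood in the windows of Rpa1 and Fen1 (6.42% of all promoters), and CCAAT in 6 windows (37.5% of all promoters). Each window is set at the start of 1 RefSeq transcript. That start was the first base of the gene for Rpa1, Pole3 and Pcna, and it lay inside the gene by 22 bases for Rfc3, 52 for Pold2, 104 for Rpa2, 127 for Lig1, 477 for Fen1 and 5092 for Pold1. Stretches of 5 genes follow, 5′ to 3′ on the gene's strand, with the E2F words in capitals. Stretches inside an annotated gene were held to 30 bases, which leaves out the second E2F word of Rpa2. A match of letters is a description and not a bound site.
Rpa2 (chr5:150260704-150260733, + strand): cgctgattagctggctcttcGCGGGAAgga
Fen1 (chr1:216274421-216274450, - strand): ctacacttcccaggaggctgTTCGCGCctg
Pole3 (chr5:80992778-80992819, - strand): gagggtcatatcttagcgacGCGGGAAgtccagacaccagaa
Rfc3 (chr12:5836552-5836581, + strand): tgacgtcgcagcctTTCGCGCtcGCGGGAA
Lig1 (chr1:83243182-83243211, + strand): ggtctgcGCGCGAAatctgtgtgGCGCGAA
Rfc3 had 2 E2F words within 20 bases of its transcript start, and the 2 words of Lig1 both lay after its transcript start.

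The size of the Cr day 1 rise differed between livers. Over the 10 genes, the median difference from the control mean was 0.91, 0.37, 0.58, 0.80 and 0.17 (log2) in livers 1 to 5. Liver 5 was the lowest of the 5 for 9 of the 10 genes, all except Rpa3. It also differed less from its controls across the array. Over probe sets outside the 10 genes that stood clear of the controls by 1.8-fold or more in the other 4 livers, liver 5 showed a median of 39.6% of their difference, against 67.7% to 132.8% for each of the other livers set against the remaining ones in the same way. The cause of that was not tested. Without liver 5, 8 genes were called, where 29.3% of all probe sets were called and 16.5% higher, with Lig1 added (0.31 ± 0.10, limma adjusted p = 0.0203), and Pold1 was larger (0.63 ± 0.12, adjusted p = 0.000107). With all livers, Rpa2, Fen1 and Pole3 had every exposed liver above every control, as did 7.04% of all probe sets. Without liver 5, a choice made after seeing the data, 8 genes did, against 11.8% of all probe sets.

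**Figure D2:**
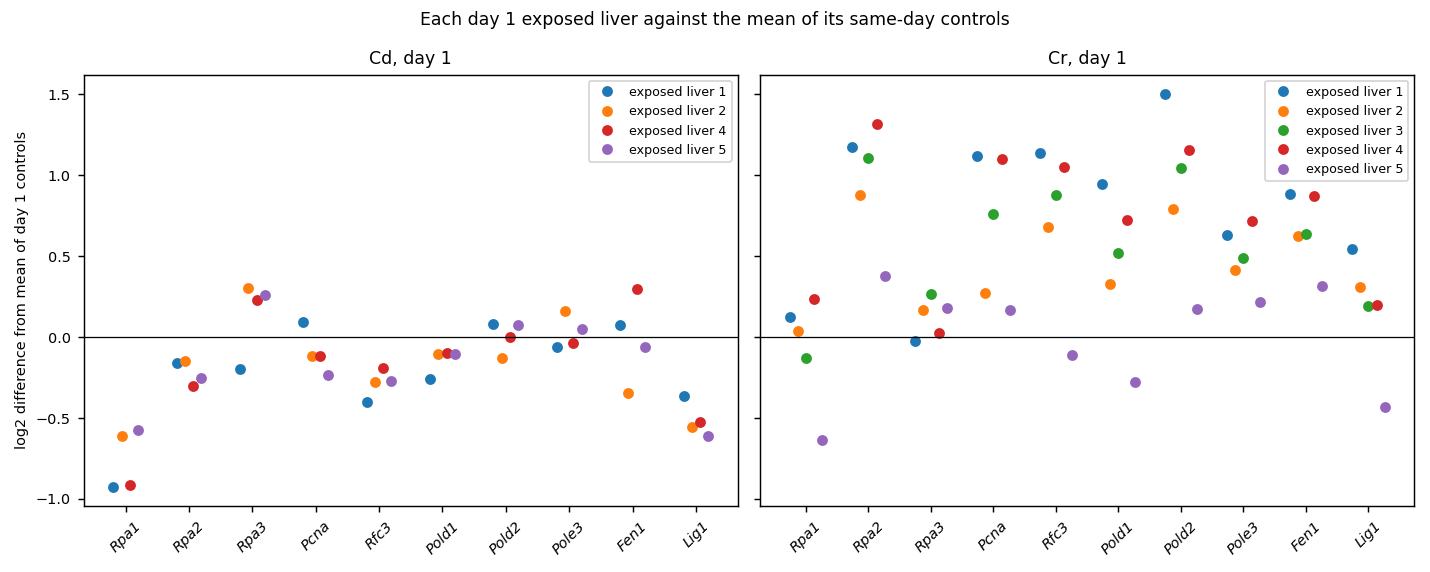
Log2 difference of each day 1 exposed liver from the mean of its same-day controls (vertical axis) for each gene (horizontal axis), Cd on the left and Cr on the right. Cr liver 5 is lowest for 9 of 10 genes, and the Cd livers lie between -0.92 and -0.58 for Rpa1.

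On day 1 after Cd, the pattern was of another kind: Rpa1 and Lig1 fell, no gene rose, and 8 genes were not called. Of all probe sets, 11.7% were called on that day and 5.27% were called lower. Among probe sets averaging at least 6 (log2), which included Rpa1 and Lig1, 21.7% were called in either direction. The median difference of the 10 genes was -0.12 (log2), against -0.01 over all probe sets. Rpa1 read 7.57, 7.88, 7.58 and 7.91 in the 4 Cd livers and 8.41, 8.47, 8.47, 8.68 and 8.41 in the controls. The gap between the groups was wider than the spread within either, and the difference was -0.76 ± 0.12, or 0.592 of the control level (limma adjusted p = 2.93e-05). Lig1 read 6.83, 6.63, 6.67 and 6.58 in Cd livers, all below the controls at 7.30, 7.00, 7.20, 7.36 and 7.08 (difference -0.51 ± 0.12, limma adjusted p = 0.00327). Its second probe set fell by 0.58 ± 0.12 (adjusted p = 0.00154).

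The genes that rose after Cr did not pass the test after Cd. Rpa2 had means of 6.87 ± 0.07 in Cd livers (SD, n = 4) and 7.09 ± 0.15 in controls (n = 5), with a difference of -0.21 ± 0.13 (limma adjusted p = 0.372). Rfc3 stood at 5.88, 5.999, 6.09 and 6.01 in Cd livers, each below every control at 6.31, 6.18, 6.35, 6.45 and 6.10, but its difference of -0.29 ± 0.15 was not called (adjusted p = 0.247). Rpa1, Rfc3 and Lig1 were thus the genes whose Cd livers all lay below the controls, as 5.13% of all probe sets did. Fen1 (-0.01), Pold2 (0.005), Pole3 (0.03) and Pcna (-0.09) had differences within their standard errors. Pold1 (-0.14 ± 0.13) and Rpa3 (0.15 ± 0.14) had differences close to theirs. Pold2 had a log2 signal of 4.83 to 5.32 on all 29 Cd arrays, below the median signal of every array.

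The 2 metals were then compared directly, as the Cd effect minus the Cr effect in 1 fit of all 59 arrays. Each metal had its own dose and its own controls, so metal, dose and control series cannot be told apart in this comparison. On day 1 this difference was called for 9 of the 10 genes, always with the lower effect after Cd, whereas 11.8% of all probe sets were called and 7.17% were called with the lower effect after Cd. Among probe sets averaging at least 6 (log2), 22.6% were called in either direction. The gaps were -1.18 for Rpa2, -1.01 for Rfc3, -0.93 for Pold2 and -0.78 for Pcna (limma adjusted p between 3.67e-05 and 0.000923). They were -0.68 for Rpa1, -0.67 for Lig1, -0.67 for Fen1 and -0.47 for Pole3. Rpa3 was the exception, with a gap of 0.02 ± 0.16 and an interval of -0.30 to 0.35. For Rpa2, Rfc3, Pold2, Pcna, Fen1 and Pole3 the gap came with a called rise after Cr, and for Rpa1 and Lig1 with a called fall after Cd. The Pold1 gap of -0.59 had an adjusted p of 0.0405, and this call rested on single livers: it was lost in 13 of 19 removals of 1 day 1 array (adjusted p from 0.0523 to 0.136), each of the 4 Cd livers included, and after a further quantile normalization (adjusted p = 0.0516).

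**Figure D3:**
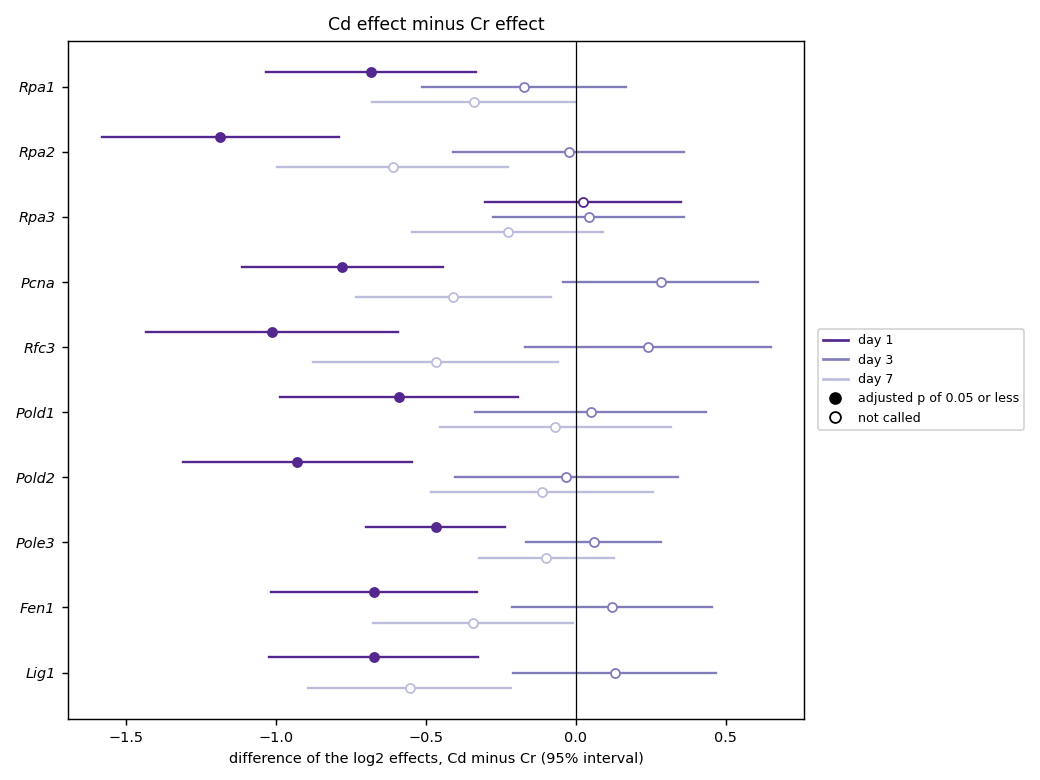
Cd effect minus Cr effect of each gene (horizontal axis, difference of log2 effects with 95% intervals) on days 1, 3 and 7, filled where the adjusted p was 0.05 or less. On day 1 the points of 9 genes are filled and lie between -1.18 and -0.47, and no point is filled on day 3 or 7.

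By day 3 none of the 10 genes was called after either metal. After Cr the differences ran from -0.19 (Pole3) to 0.12 (Lig1), and 0.00322% of all probe sets were called. After Cd they ran from -0.13 (Pole3) to 0.26 (Lig1), and 0.612% of all probe sets were called. Pcna read 9.50, 9.33, 9.54, 9.50 and 9.42 in the Cd day 3 livers and 9.26, 9.26, 9.12, 9.20 and 9.23 in controls. All exposed livers were above all controls for Pcna, and likewise for Lig1, though Lig1 livers 2 and 4 stood only just above the highest control. The Pcna difference of 0.25 ± 0.09 had an adjusted p of 0.274 (unadjusted 0.0102), and 1.53% of all probe sets had the exposed livers above all controls on that day.

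The change between day 1 and day 3 was tested as the difference of the same-day effects. After Cr it was called for 6 genes, all with the lower effect on day 3, where 11.5% of all probe sets were called and 7.01% with the lower effect. Among probe sets averaging at least 6 (log2), 23% were called after Cr and 9.6% after Cd, in either direction. The differences between days were -0.92 for Pold2, -0.87 for Rpa2, -0.78 for Rfc3, -0.72 for Pcna, -0.70 for Fen1 and -0.69 for Pole3 (limma adjusted p between 0.00144 and 0.0116). Pold1 was lower by 0.45 but not called (adjusted p = 0.175). After Cd the Rpa1 and Lig1 effects were higher on day 3, by 0.71 ± 0.16 and 0.77 ± 0.16 (limma adjusted p = 0.00597 and 0.00324), where 5.15% of all probe sets were called and 2.81% with the higher effect. With the controls of all 3 days pooled, the Lig1 value was 0.32 ± 0.14 and not called (adjusted p = 0.189). Pooled controls cancel in this contrast. It then compares the exposed livers of day 3 and day 1 directly, and changes of the controls between days are not removed. For Rpa1 the Cd day 3 livers read 8.19 to 8.68, inside the range of their controls at 8.26 to 8.83 except for liver 1.

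**Figure D4:**
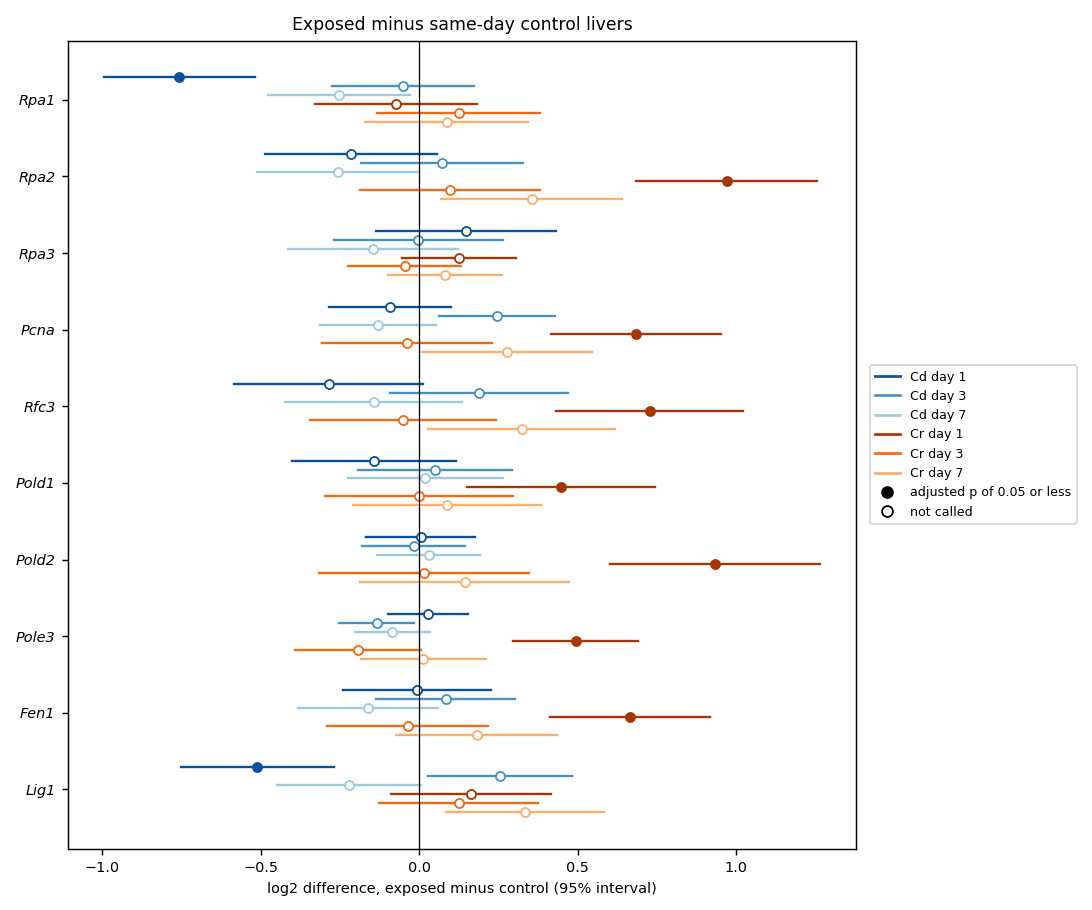
Exposed minus same-day control difference of each gene (horizontal axis, log2 with 95% intervals) for Cd and Cr on days 1, 3 and 7, filled where the adjusted p was 0.05 or less. Filled points occur only on day 1: 7 genes to the right of zero after Cr, and Rpa1 and Lig1 to the left after Cd.

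On day 7 again no gene was called, where 0.0129% of all probe sets were called after Cd and 0.126% after Cr. After Cr all 10 differences were positive, from 0.01 (Pole3) to 0.35 (Rpa2), with a median of 0.16 against 0.00 over all probe sets. These differences share 1 group of controls, which stood below the Cr controls of day 1 for all 10 genes (median -0.25). Rpa2, Lig1, Rfc3 and Pcna had an unadjusted p under 0.05, as 8.44% of all probe sets had, and their limma adjusted p lay between 0.378 and 0.57. Pcna read 9.50, 9.60, 9.53, 9.35 and 9.40 in the Cr day 7 livers, all above the controls at 9.19, 9.30, 9.16, 9.10 and 9.24, as in 1.2% of all probe sets. After Cd 8 of 10 differences were negative, with a median of -0.14. An unadjusted p of 0.05 or less was found for 2 genes there, as for 6.71% of all probe sets. Cd liver 2 was the lowest for 9 genes, with a median of -0.53 from the control mean, for example Rfc3 at 5.20 in that liver and at 5.84 to 6.31 in the controls. The Cd effect minus the Cr effect on day 7 was negative for all 10 genes (-0.61 for Rpa2 to -0.07 for Pold1) but called for none, where 0.283% of all probe sets were called. On day 3 it was called for none of the 10 either, where 0.0129% of all probe sets were. The Cr effect on day 7 was lower than on day 1 for Pold2 (-0.79), Rpa2 (-0.62) and Pole3 (-0.48), the 3 genes called in that contrast, where 11.1% of all probe sets were called and 6.23% with the lower effect on day 7. Among probe sets averaging at least 6 (log2), 21.6% were called. The count of 3 genes depended on single livers: it was 7 without Cr exposed day 1 liver 5, and it was 1 without exposed day 1 liver 1 or 4 or without Cr control day 1 liver 2. It was 6 with array weights and 1 after a further quantile normalization. It was 8 with the controls of all 3 days pooled, but pooled controls cancel in this contrast. That setting compares the exposed livers of day 7 and day 1 directly, so changes of the controls between days are not removed. The Rpa2 call was lost in 11 of 20 removals of 1 array (adjusted p from 0.0538 to 0.0937). For Cd the day 7 minus day 1 effect was called for none of the 10 genes, where 5.08% of all probe sets were called. Rpa1 (0.50) was called there in several other settings, such as array weights (0.54, limma adjusted p = 0.0256). With the controls of all 3 days pooled, which again cancel, Rpa1 (0.63), Rpa3 (-0.47), Fen1 (-0.42) and Pole3 (-0.22) were called.

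The control livers themselves differed between days for some of the genes. Lig1 had means of 7.19 ± 0.17, 6.86 ± 0.11 and 6.61 ± 0.16 (log2 signal, SD, n = 5 each) in the Cr control livers of days 1, 3 and 7. Day 7 was lower than day 1 by 0.58 ± 0.12 (limma adjusted p = 0.011), where 0.731% of all probe sets were called, and its second probe set was lower by 0.63. Without Cr control day 7 liver 4 the Lig1 difference was -0.51 and not called (adjusted p = 0.0672). Fen1 had means of 7.01, 6.74 and 6.57 in the same livers, and the difference of day 7 from day 1 was not called (-0.44 ± 0.12, adjusted p = 0.129). In Cd controls the day 3 minus day 1 differences of Fen1 and Lig1 were -0.44 each and not called (adjusted p = 0.0657 and 0.0738), where 0.467% of all probe sets were called. Both were called with array weights (adjusted p = 0.0295 and 0.0151), with the filter on the lowest signal (0.0434 and 0.0483) and with the mean over a gene's probe sets (0.0403 and 0.00213). The second Lig1 probe set was called there (-0.50 ± 0.12, adjusted p = 0.0433). Mki67, a mark of dividing cells, was lower on day 7 than on day 1 by 2.32 ± 0.37 in the Cr controls (adjusted p = 0.000566). All Cr control differences of day 7 from day 1 were negative for the 10 genes, from -0.58 to -0.01. With the controls of all 3 days pooled, the Cd day 1 difference of Lig1 was -0.27 ± 0.12 and was not called (adjusted p = 0.144), while Lig1 after Cr on day 1 was called at 0.47 ± 0.13 (adjusted p = 0.00502).

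Genes that work beside the 10 at the fork were read from fixed lists. After Cr on day 1, of 13 other subunits of the same holoenzymes, 3 rose and none fell: the clamp loader subunit Rfc2 (0.61 ± 0.12), the polymerase alpha catalytic subunit Pola1 (0.59 ± 0.09) and the epsilon subunit Pole4 (0.24 ± 0.08), with a list median of 0.16. Of 15 fork helicase and scaffold genes, 4 rose, among them the GINS subunit Gins1 (0.89 ± 0.15). Both counts were close to the background, since 14.8% of all probe sets and 27.7% of those averaging at least 6 were called higher. Of 5 other nucleases of the lagging strand, Rnaseh1 (0.38) and Exo1 (0.38) rose and Rnaseh2c fell by 0.69. Proteins that bind PCNA moved in both directions, 7 up and 3 down of 12, led by Cdkn1a, the p21 inhibitor of cyclin-dependent kinases and of PCNA, at 1.196 ± 0.28 (limma adjusted p = 0.00145). Of 15 S phase and proliferation marks, 9 rose and 1 fell. The helicase subunits Mcm4 (1.17) and Mcm6 (1.08) led that list, whereas Mki67 stood at -0.79 ± 0.37 and was not called (adjusted p = 0.125).

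After Cd on day 1, 16 of 60 measured genes of the same lists fell and 1 rose, where 5.27% of all probe sets were called lower. Among probe sets averaging at least 6 (log2), 21.7% were called in either direction. The primase subunit Prim2 (-0.74), the epsilon catalytic subunit Pole (-0.71) and Rfc4 (-0.60) were among 4 of 13 holoenzyme subunits that fell, and none rose. Mcm10 and Gins4 fell among 15 helicase and scaffold genes, by 0.48 and 0.42. The RNase H2 subunits Rnaseh2c and Rnaseh2a fell by 0.78 and 0.54 among 5 nucleases. Of 15 proliferation marks 6 fell, with Rrm2 at -2.97 ± 0.56 and Mki67 at -2.30 ± 0.34 (limma adjusted p = 0.000431 and 1.77e-05). The summed linear signal of the 15 marks was 1525 to 1930 in Cd day 1 livers and 3827 to 5844 in their same-day controls. It was 1584 to 2445 in the Cd controls of day 3 and 2140 to 2875 in those of day 7, so the day 1 controls stood high. Of 12 proteins that bind PCNA, Pclaf (-1.60) and Chaf1b (-0.35) fell and Ung rose (0.46), and Cdkn1a stood at -0.55 and was not called (adjusted p = 0.0765). On Cd day 3 Mcm6 (1.06), Mcm4 (0.80) and Mcm3 (0.58) were among 4 proliferation marks that rose, where none of the 10 fork genes was called. Of all probe sets, 0.541% were called higher on that day. In the Cd controls, 5 of these 15 marks were called lower on day 3 than on day 1, as were 0.419% of all probe sets. Among them were Mki67 (-1.43 ± 0.32) and Mcm6 (-1.05 ± 0.24), with limma adjusted p of 0.0322 and 0.0438.

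Markers of other liver cells moved on day 1 as well, and their part in the fork gene results was not tested. After Cd all 6 measured Kupffer cell markers fell (median -3.75), with a summed linear signal of 182.8 to 1954 in Cd livers and 3724 to 5256 in controls, and 5 of 7 neutrophil and monocyte markers rose, with sums of 3459 to 6787 in Cd livers and 962 to 2369 in controls. After Cr 3 of 7 neutrophil and monocyte markers rose (sums 1237 to 2722 in Cr livers and 924.5 to 1679 in controls), and of 4 cholangiocyte markers Spp1 and Epcam rose (sums 412.2 to 1248 in Cr livers and 295.2 to 446.8 in controls). Of the same 4 cholangiocyte markers, Epcam and Krt7 fell after Cd (-0.46 and -0.41, sums 258.7 to 390 in Cd livers and 314.8 to 433.8 in controls). The other 2 were not called and moved in opposite directions, at -0.605 and 0.888. Krt7 had a mean log2 signal of 4.22, below the median signal of every array. Among 6 stellate markers Rgs5 (1.54) and Pdgfrb (0.51) rose after Cd and Rgs5 (1.22) after Cr. The others were not called, with differences down to -0.62 after Cd and -0.31 after Cr. The stellate sums overlapped, at 2703 to 4262 in Cd livers and 1968 to 6496 in their controls. After Cr they were 3032 to 4341 in exposed livers and 3279 to 3626 in controls. Among 4 endothelial markers Lyve1 rose after Cd (0.87) and Pecam1 after Cr (0.46). The endothelial list median was 0.36 after Cd but -0.09 after Cr, where the lowest marker stood at -0.20. The endothelial sums after Cr were 2123 to 3433 in exposed livers and 2760 to 3140 in controls. Of 6 lymphocyte markers none was called after Cd and Nkg7 rose after Cr (0.28), where the list median was -0.05. The Kupffer sums after Cr were 3964 to 5817 in exposed livers and 3676 to 5048 in controls, with 1 of 6 markers called higher. Of 6 hepatocyte markers, Cps1 and Ttr fell after Cd (-0.31 and -0.18) and Cps1 fell after Cr (-0.32). RMA gives no absent call, so no marker reads 0 on these arrays.

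The 10 genes differed in how closely they followed one another across arrays. With each array set against its same-day control mean, a gene's correlation with the mean of the other 9 over 30 Cr arrays was 0.94 for Rfc3, 0.93 for Rpa2, 0.91 for Pcna, 0.87 for Fen1 and Pold2, 0.82 for Pold1, 0.74 for Pole3 and 0.60 for Lig1, but 0.20 for Rpa1 and 0.12 for Rpa3. With each group's own mean removed, Rfc3 was again highest (0.88), and Rpa1 was at 0.67, while Rpa3 was at -0.29. Over 29 Cd arrays within groups, Rfc3 (0.93), Rpa2 (0.82) and Pcna (0.79) led. These are descriptions over arrays that share their controls and their normalization. The genes outside the 10 whose pattern over the 30 Cr arrays was most like the mean of the 10 were Kars1 (r = 0.94), Hpf1, Ercc3, Phf5a, Arfrp1, Trappc4, Dus1l and Hat1 (0.931), of 8363 genes compared. Without the 5 exposed day 1 arrays their r was 0.667 to 0.838 over 25 arrays.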

How the data were processed

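The authors normalized the arrays by RMA in Partek, and the deposited values are log2 signals per probe set, with no counts, so precision rests on the number of arrays. Which arrays shared a scan or a slide is not given in the sources used here. From these log2 values, 57 control probe sets were left out and 31042 were tested, with gene symbols from the array annotation (20826 probe sets with 1 symbol, 436 with several, 9780 with none). For each metal, limma 3.58.1 in R 4.3.3 was fitted to the 6 groups, exposed minus same-day controls, with eBayes and Benjamini-Hochberg adjustment over all probe sets. The metals were compared in 1 fit of 12 groups. Replicates are separate animals per the labels. The control-day comparison was added after seeing the data.

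The 10 genes and the gene lists were chosen with earlier results of these data known. Named genes are the 10, Cdkn1a, Mki67, up to 3 called genes per list and comparison with the largest difference, marker genes included, and the 8 most alike. On data simulated from the real means and spreads, only 50 probe sets were changed at each fold of 1.2, 1.5, 2 and 3. There 1.5-fold changes were recovered in 74% of cases for Cd day 1 and 80% for Cr day 1. For 2-fold changes it was 96% and 98%, and for 1.2-fold changes 8% and 20%. The real fits called 3621 and 8077 probe sets, so their Benjamini-Hochberg cutoff was looser and these shares do not carry over directly. Alternatives were pooled controls, signal filters, other variance estimates, array weights, a joint fit, quantile normalization again, a replicate block, single-day fits, probe set means and leaving out each array. Promoters came from RefSeq GRCr8. Python 3.11.15 drew the plots.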

Additional observations from a re-analysis of the deposited data

Results flagged for a closer look

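In 6 of 120 groups of 4 or 5 livers, 1 liver lay apart from the others by Dixon's criterion, and chance alone gives about 1 in 20. These were Rpa1 at 8.68 in Cd control day 1 liver 4, Rpa2 at 6.38 in Cd control day 7 liver 1, Rpa3 at 10.2 and Pold1 at 5.51 in Cd exposed day 1 liver 1, and Fen1 at 6.21 and Lig1 at 6.32 in Cr control day 7 liver 4.

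The effects of the 2 metals on day 1, each at its own dose and against its own controls, differed by test for some genes. These were Rpa1 (-0.68), Rpa2 (-1.18), Fen1 (-0.67), Pold1 (-0.59), Pold2 (-0.93), Pole3 (-0.47), Pcna (-0.78), Rfc3 (-1.01) and Lig1 (-0.67), each as Cd minus Cr on the log2 scale. Between days, the Cd effect was higher on day 3 than on day 1 for Rpa1 (0.71) and Lig1 (0.77). The Cr effect was lower on day 3 than on day 1 for Rpa2 (-0.87), Fen1 (-0.70), Pold2 (-0.92), Pole3 (-0.69), Pcna (-0.72) and Rfc3 (-0.78). It was lower on day 7 than on day 1 for Rpa2 (-0.62), Pold2 (-0.79) and Pole3 (-0.48).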

How the results depend on the processing

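Across 11 other settings and the removal of each of 59 arrays, 3982 member values were recomputed, and no called direction was reversed. A call was lost in 39 of them and gained in 46. With the controls of all 3 days pooled, 1 gene in place of 2 was called for Cd day 1 (Lig1 was lost, there and for the Cd day 3 minus day 1 effect). For Cr day 1, Rpa3 and Lig1 gained a call in that setting. In contrasts between days the pooled controls cancel, so there that setting compares exposed livers alone. With the mean over a gene's probe sets, 1 gene (Lig1, -0.60) in place of none was called for the Cd minus Cr effect on day 7. Leaving out single arrays gave 2 to 2 called genes for Cd day 1, 6 to 8 for Cr day 1, 8 to 9 for the Cd minus Cr effect on day 1, 6 to 7 for the Cr day 3 minus day 1 effect and 2 to 2 for the same contrast of Cd. It gave 0 to 0 for Cd and Cr on days 3 and 7 and for the Cd minus Cr effect on those days. Pold1 after Cr on day 1 was not called without Cr exposed liver 1 (0.32, limma adjusted p = 0.104) or 4 (0.38, adjusted p = 0.0751), without control liver 2 (0.40, adjusted p = 0.0565) or 5 (0.41, adjusted p = 0.0575), or when fitted to that metal and day alone (0.45, adjusted p = 0.124). The filters on signal left out Pold1 and Pold2, and 5 of the other 8 genes were called after Cr on day 1. The Cr day 7 minus day 1 contrast gave 3 called genes as reported, 8 with pooled controls, 6 with array weights, 1 after a further quantile normalization and 1 to 7 with single arrays left out.

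Same-numbered exposed and control arrays were slightly more alike than other pairs. Their deviations had a mean correlation of 0.08, against -0.02 for other pairs, and 13 of 29 same-numbered pairs were over 0.1. Of 29 exposed arrays, 13 correlated best with the control of their own number. The source of that likeness was not tested, and the main fits did not use the replicate number. With the replicate number as a block, the counts were 2 for Cd day 1, 7 for Cr day 1, 9 for the Cd minus Cr effect on day 1, 6 for the Cr day 3 minus day 1 effect and 2 for that of Cd, as without the block. The block added Fen1 to the Cr day 7 minus day 1 effect (-0.48, adjusted p = 0.0403) and to the difference of Cd controls of day 3 from day 1 (-0.44, adjusted p = 0.0395).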
